A study of Mus musculus with 11 samples.

Results

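The immediate early genes *Fos*, *Fosb*, *Jun*, *Junb*, *Egr1*, *Atf3*, *Nr4a1*, *Ier2*, *Dusp1* and *Zfp36* were followed by cell type and by library through single cells of mouse brain cortex. The 10 genes were chosen by name from the 26921 genes with at least 1 UMI (unique molecular identifier, 1 counted RNA molecule) in the 11 libraries. All mice were C57BL/6 females. The 4 groups were juvenile mice at postnatal day 10 (4 libraries), untreated adults of 7 to 11 weeks (3 libraries), aged mice of 18 months (2 libraries) and adults of 7 to 11 weeks at the disease peak of experimental autoimmune encephalomyelitis (EAE, 2 libraries), which was induced with a myelin oligodendrocyte glycoprotein peptide in complete Freund's adjuvant plus pertussis toxin. The adult mice received neither adjuvant nor toxin, so the autoimmune disease and the injections cannot be told apart. Cortex was pooled from 6 mice (juvenile, adult) or 3 mice (aged, EAE), digested with papain at 30 U/ml and Liberase TM at 0.125 mg/ml for 60 min at 37 °C, depleted of myelin and captured with 10X Chromium 3' chemistry.

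Immediate early genes are transcribed within minutes of a stimulus, from promoters already loaded with factors such as CREB, SRF and ELK, and need no new protein for it. Many encode transcription factors that turn on later genes, while others damp the signal that induced them. The digestion of tissue at body temperature is itself known as a stimulus for them, so the spread between libraries of one condition was measured here beside each difference between conditions.

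One route to these genes is the cAMP response element (CRE), bound by CREB, and its letters are shown because that route is common to many genes of this class. The 250 bases before each start were read from RefSeq promoters, assembly GRCm38.p6. *Egr1* and *Ier2* were not among those read. The chromosome of *Egr1* was left out for the members, though not for the share over all promoters. That left 8 of the 10 members. Of those, 6 held the CRE half-site TGACG on either strand in this window, against 17.8% of all 32851 promoters. The full palindrome TGACGTCA, which contains the half-site on both strands, occurred in 1 member, against 1.55% of all promoters. Windows around a half-site are given 5′ to 3′ along the gene's strand, with TGACG, its complement CGTCA or the full palindrome in capitals.
Fos, chr12:85473806-85473846, plus strand: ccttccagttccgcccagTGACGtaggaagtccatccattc
Fosb, chr7:19310083-19310123, minus strand: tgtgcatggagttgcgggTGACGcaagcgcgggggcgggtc
Junb, chr8:84978832-84978872, minus strand: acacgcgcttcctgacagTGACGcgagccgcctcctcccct
Dusp1, chr17:26508593-26508633, minus strand: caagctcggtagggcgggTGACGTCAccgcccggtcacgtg
Nr4a1, chr15:101266788-101266828, plus strand: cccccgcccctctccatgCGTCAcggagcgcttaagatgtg
Atf3, chr1:191183334-191183358, minus strand: aagctattaatagcattaCGTCAgc
These half-sites began 66 bases before the start in *Fos*, and 4 half-sites lay in the *Nr4a1* window, 3 in that of *Dusp1*. A match of letters is a description and was not tested as a binding site. *Jun* and *Zfp36* had no TGACG in this window. Their genes lie at chr4:95049034-95052222 and chr7:28376784-28380253 (GRCm38, both on the minus strand).

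The libraries held 15755504 to 34326349 UMIs in 2787 to 8525 barcodes, and 50625 of 54646 barcodes passed the filters. Clusters were named from marker genes and are called here by the type they resemble: endothelial cells (EC, 21128 cells), microglia (Micro, 8755), choroid plexus epithelium (6682), T or NK cells (2411), perivascular macrophages (PVM, 2329), monocytes or macrophages (2242), mural cells (1500), astrocytes (1457), fibroblast-like cells (Fibro, 1173), ependymal cells (761), B cells (551), neurons (514), neutrophils (479) and oligodendrocytes (259). All 7 EC markers, 6 Micro markers and 7 PVM markers were detected in every library in the type they define. In the cluster of monocytes or macrophages, dendritic cell markers reached a median of 0.522 of their level in their highest cluster. No dendritic cell type was named apart, so this cluster may hold such cells. *Ttr*, a secreted product of choroid plexus epithelium, made up 3740 to 50200 CPM (counts per 1000000 UMIs) of EC sums, with 50200 in Adult 1, although ECs are not known as a source of it. Libraries also fell into sets: over genes other than the members and the listed genes, the EC sums of Adult 2 and Adult 3 differed by 1.37 chi-square units per degree of freedom, 1.14 times the value of random divisions of their joined cells. Adult 1 differed from them by 26.9 and 27.5 (19.3 and 20.8 times). Juvenile 1 and 2 differed by 2.56 and Juvenile 3 and 4 by 2.37 (1.6 times each), and libraries across those pairs by 11.7 to 14.3 (7.89 to 9.04 times). Aged 1 and 2 differed by 2.63 (1.25 times), EAE 1 and 2 by 1.92 (1.33 times). Libraries of one such set are called near-identical here. The labels do not say whether such a set stands for one pool of mice, one digestion, one capture or one sequencing run. Animals, dissociation, capture and sequencing therefore cannot be told apart, and p-values over libraries measure only the spread between these libraries.

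Each member had a mean level above 0 in every type, and the order of the types differed between members. Levels are means ± SD over up to 6 sets of near-identical libraries (Juvenile 1 and 2, Juvenile 3 and 4, Adult 1, Adult 2 and 3, aged, EAE), in CPM. Ependymal levels came from the juvenile and EAE sets alone, as adult and aged libraries had 1 to 8 such cells each. Neutrophil levels came from the aged and EAE sets alone, and those of oligodendrocytes lacked Juvenile 3 and 4 and EAE. Between the 13 types with sums in at least 5 libraries, 594 of 780 comparisons of a member between 2 types passed an adjusted p of 0.05 (edgeR quasi-likelihood test with library as block, Benjamini-Hochberg over all genes), and 54.4% of all such gene comparisons did. With near-identical libraries summed into 1 sample the count was 537. The plot of levels by cell type shows every library.

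**Figure D1:**
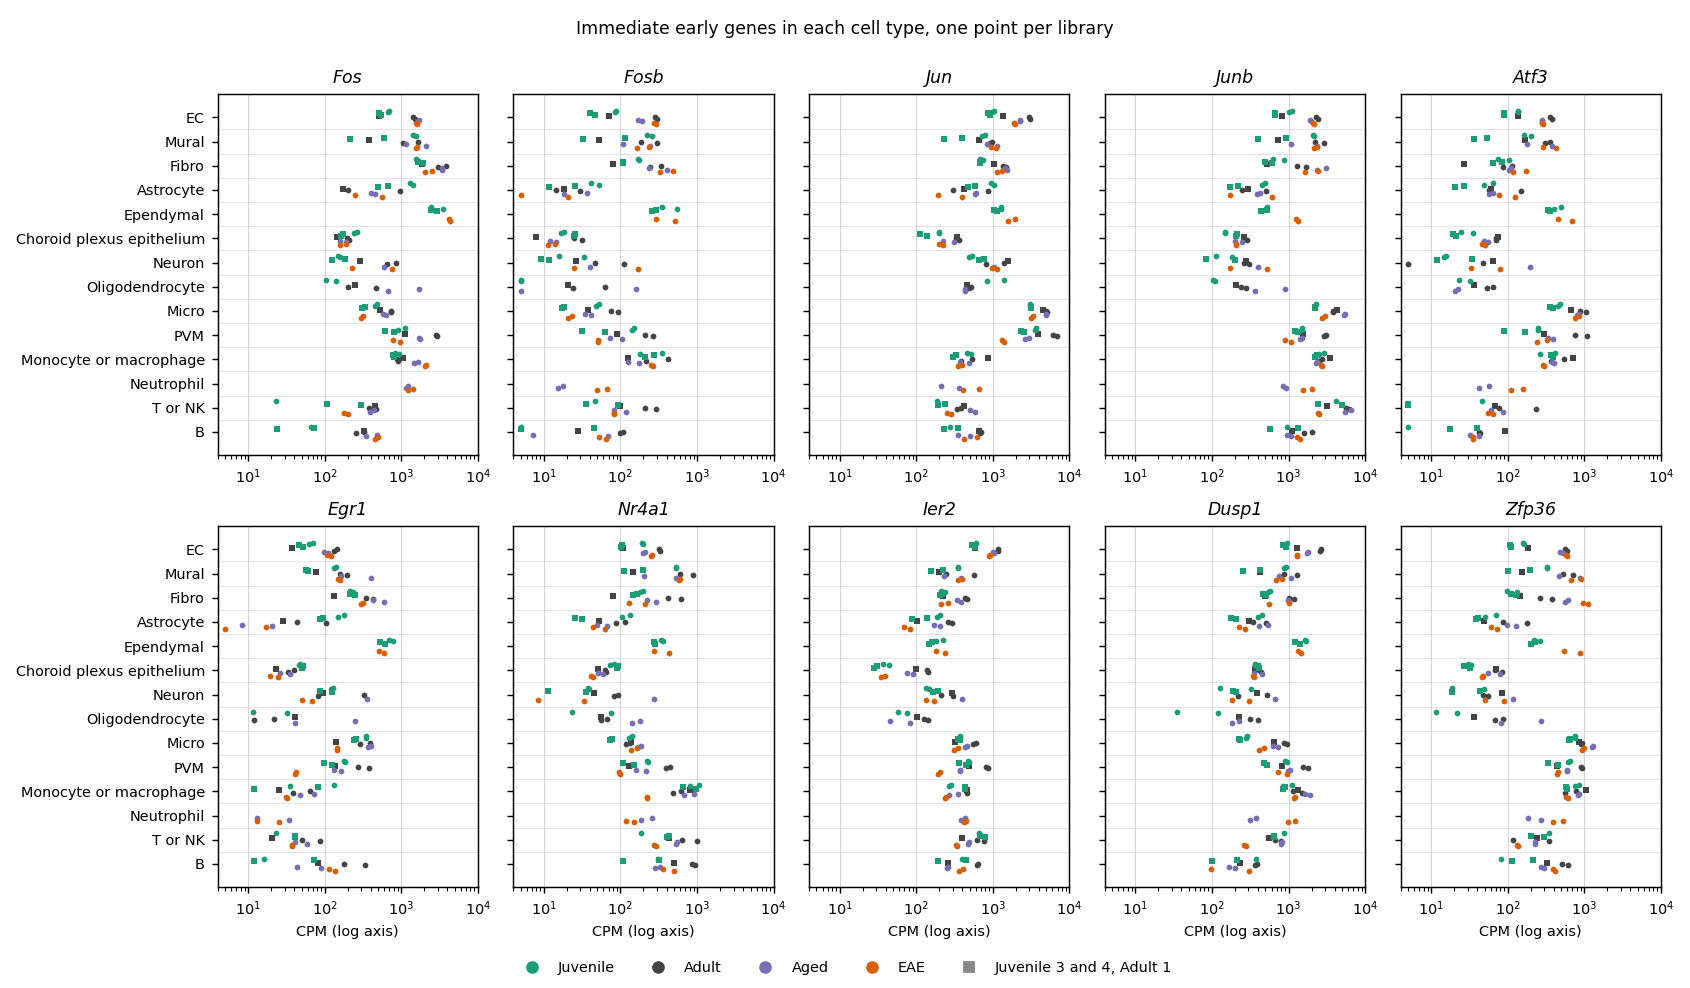
Level of each immediate early gene (CPM, log axis) in each cell type, 1 point per library with at least 10 cells, coloured by condition, with squares for Juvenile 3, Juvenile 4 and Adult 1; values below 5 CPM are drawn at 5. Ependymal cells and fibroblast-like cells lie at the right for Fos (3310 and 2390 CPM on average), choroid plexus epithelium at the left (186 CPM), and within a type the libraries of one condition can lie as far apart as those of different conditions.

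Among the genes of AP-1, the dimeric factor of Fos and Jun proteins, *Fos* was highest in ependymal cells (3310 ± 842 CPM, n = 3) and Fibro (2390 ± 817 CPM, n = 6). Next came PVM at 1390 ± 812 CPM, neutrophils, monocytes or macrophages at 1210 ± 498 CPM, mural cells at 1140 ± 591 CPM and EC at 1070 ± 558 CPM. Choroid plexus epithelium had the lowest level, 186 ± 36.5 CPM. Down this order, neutrophils aside, no type was called apart from the next except EC over astrocytes (log2 0.94, adjusted p = 0.00329, edgeR), a step with adjusted p = 0.0676 when near-identical libraries were summed. *Fosb*, the closest relative of *Fos*, followed with 373 ± 88.5 CPM in ependymal cells and 231 ± 129 CPM in Fibro down to 17.5 ± 7.8 CPM in choroid plexus epithelium, and the first step was called (adjusted p = 0.0148) but not with libraries summed (0.0664). Monocytes or macrophages, at 227 ± 73.7 CPM, were not called apart from ependymal cells (adjusted p = 0.607).

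*Jun*, the partner of Fos in AP-1, had its highest levels in macrophages of the brain instead: 4000 ± 941 CPM in Micro and 3430 ± 1730 CPM in PVM, which did not differ beyond their spread (adjusted p = 0.458). The step from PVM to EC, at 1750 ± 834 CPM, was past the threshold (adjusted p = 8.19e-07, and 8.24e-05 with libraries summed). *Junb*, a Jun relative with its own targets, was highest in T or NK cells (4230 ± 1450 CPM), Micro (3460 ± 1270 CPM) and monocytes or macrophages (2690 ± 445 CPM), and these 3 neighbours were not called apart. *Atf3*, a stress-induced factor of the ATF and CREB family, was highest in Micro (684 ± 226 CPM) and under 100 CPM on average in neutrophils, Fibro, astrocytes, T or NK cells, neurons, choroid plexus epithelium, B cells and oligodendrocytes.

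*Egr1*, a zinc finger factor used in neurons as an activity marker, was higher in ependymal cells (620 ± 96.8 CPM, n = 3) than in the next type, Fibro (300 ± 135 CPM; adjusted p = 0.000794, and 0.0168 with libraries summed). Micro had 269 ± 108 CPM, above the cells named neurons at 158 ± 109 CPM (adjusted p = 3.89e-08, edgeR). Those were few after myelin depletion, with 93, 14 and 10 cells in Adult 1, 2 and 3. Top genes of their cluster included *Igfbpl1*, *Reln*, *Dlx1*, *Dlx2* and *Meis2*, so they do not stand for cortical neurons at large. *Nr4a1*, an orphan nuclear receptor induced by antigen receptors in lymphocytes and required by patrolling monocytes, was highest in monocytes or macrophages (688 ± 262 CPM), then in B cells (444 ± 245 CPM), T or NK cells (444 ± 219 CPM) and mural cells (423 ± 241 CPM), and neighbours among the last 3 were not called apart.

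Of the genes that limit signalling, *Dusp1*, a phosphatase of MAP kinases, was highest in EC (1470 ± 644 CPM) and ependymal cells (1460 ± 195 CPM), which were not called apart (adjusted p = 0.978), nor were EC and monocytes or macrophages (adjusted p = 0.687). *Zfp36*, which encodes tristetraprolin and speeds the decay of cytokine mRNAs, was highest in Micro (902 ± 223 CPM) and monocytes or macrophages (760 ± 179 CPM). Its lowest mean was in choroid plexus epithelium (53.9 ± 20.5 CPM). With library as block, however, neurons (64.7 ± 33.5 CPM) were below choroid plexus epithelium (log2 -0.98, adjusted p = 0.00336, edgeR). *Ier2*, a small nuclear protein of the same early wave, was highest in EC (803 ± 259 CPM), above T or NK cells at 550 ± 168 CPM (adjusted p = 0.00893, but 0.125 with libraries summed).

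In EC, libraries of one set carried near-equal levels while the sets of one age differed. *Fos* in EC reached 507 CPM in Adult 1, 1417 in Adult 2 and 1504 in Adult 3. The juvenile libraries 1 to 4 had 692, 662, 512 and 541 CPM of *Fos*, the aged ones 1703 and 1655, and the EAE ones 1563 and 1607. Adult 1 thus lay below every juvenile library in *Fos*, while Adult 2 and 3 lay near the aged and EAE libraries. *Zfp36* in EC followed the same split, with 186 CPM in Adult 1 against 568 and 587 in Adult 2 and 3. *Jun* in EC was 1359.8 in Adult 1 against 3009 and 3098 CPM, and 1023, 972, 857 and 911 in the juvenile libraries.

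**Figure D2:**
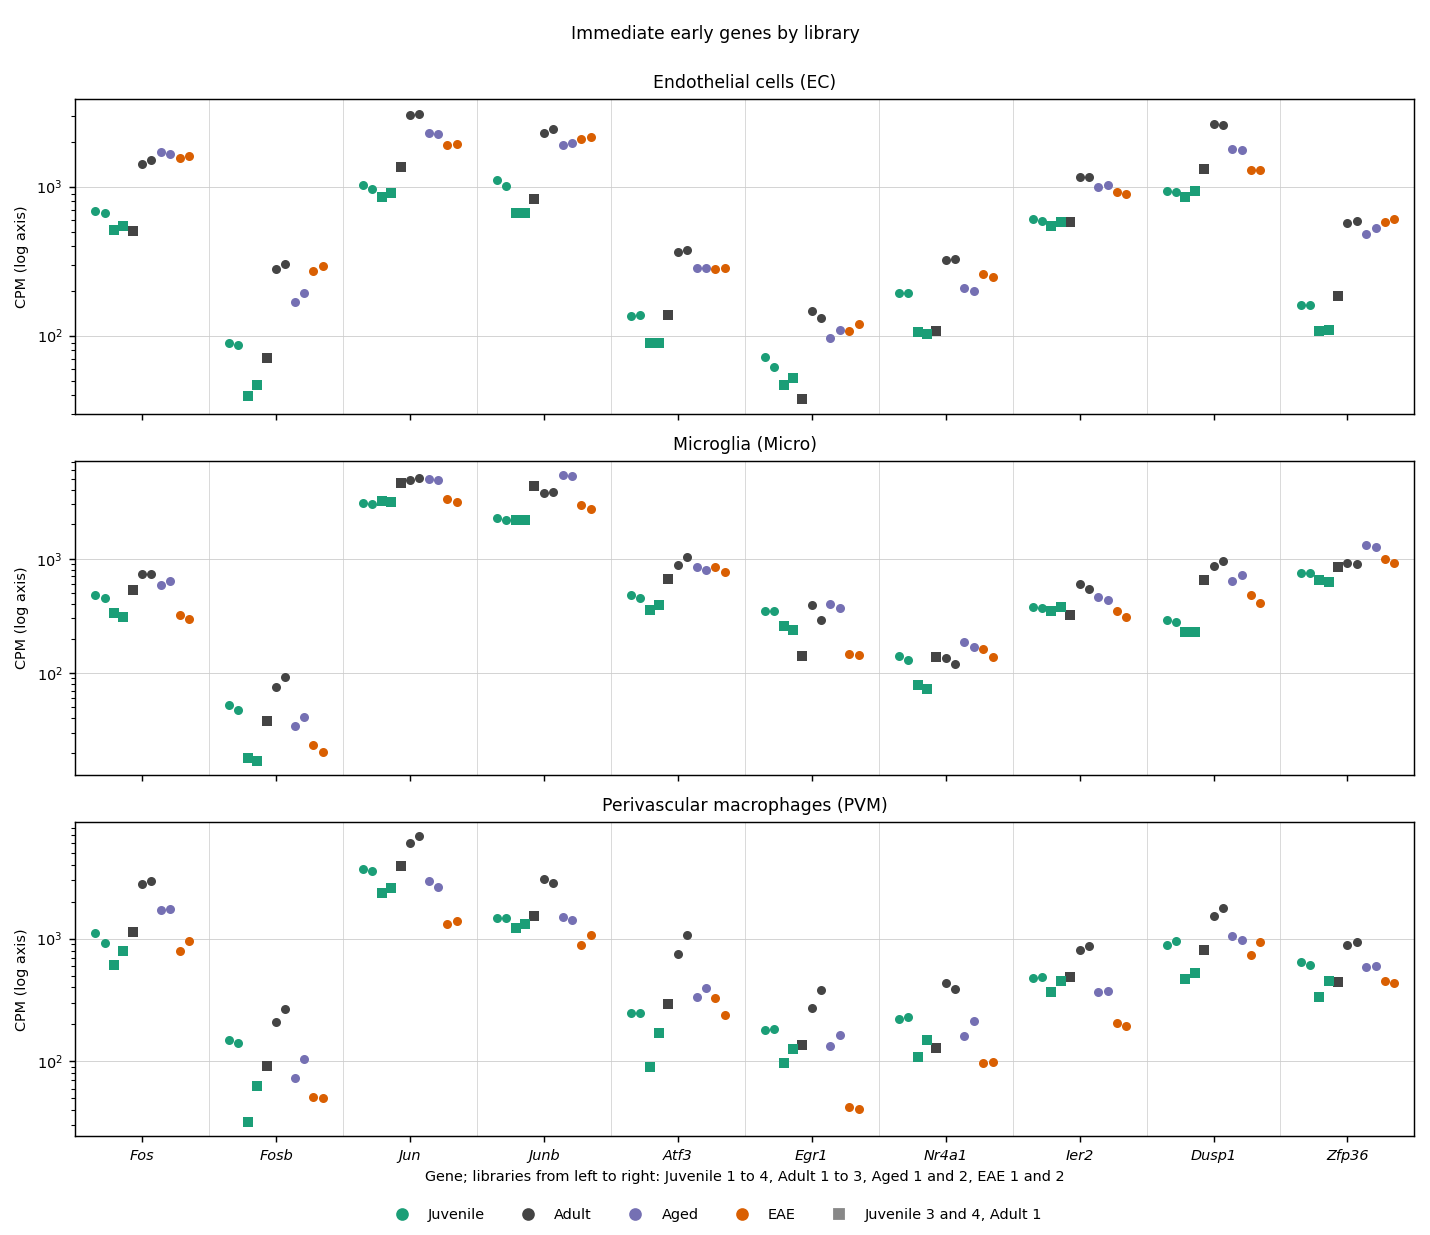
Level of each member (CPM, log axis) in EC, Micro and PVM by library, from left to right Juvenile 1 to 4, Adult 1 to 3, Aged 1 and 2, EAE 1 and 2, with squares for Juvenile 3, Juvenile 4 and Adult 1. In EC the square of Adult 1 lies below both other adult libraries for all 10 genes, and in PVM the EAE libraries lie lowest for Jun (1321 and 1398 CPM) and Egr1 (42.7 and 41.1 CPM).

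As a median over the 10 members, libraries of one set differed in EC by 0.04 to 0.08 on the log2 scale of CPM. The juvenile sets differed by 0.50 and the adult sets by 1.52, and the means of the conditions differed by 1.09 (juvenile and adult), 0.17 (aged and adult) and 0.34 (EAE and adult). The largest difference in EC was therefore between adult libraries. In PVM the medians were 0.06 to 0.37 within sets, 0.71 and 1.15 between the juvenile and the adult sets, and 0.83, 0.70 and 1.40 for juvenile, aged and EAE against adult. The 0.37 in PVM lay between Juvenile 3 and 4, with all 10 members on one side and *Fosb* at 31.9 and 62.7 CPM, so libraries of one set were not near-equal there. Micro gave 0.05 to 0.14, then 0.32 and 0.46, then 0.70, 0.35 and 0.56 in the same order. In choroid plexus epithelium the order was 0.08 to 0.29, then 0.46 and 0.25, then 0.65, 0.23 and 0.53. Aged 1 and 2 gave the 0.29, which was more than the 0.25 between the adult sets.

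Between the adult sets, 33 of 119 tests over 12 types were higher in Adult 2 and 3 than in Adult 1 and 1 was lower (edgeR quasi-likelihood test, Benjamini-Hochberg over all genes of a type), where 4% of all tests over these types were higher and 4.21% lower. The spread in this fit came from libraries within the near-identical sets of all conditions. Adult 1 is a single library and was taken to vary like them, so a call here says that these libraries differed by more than near-identical ones do. How far separately prepared libraries of one age differ cannot be read from 1 set against 1, and differences are given with their standard errors but without p-values. All 10 members were higher in EC, where 9.88% of genes were. The median of the members was 1.55 on the log2 scale and that of all genes 0.03. Log2 differences in EC were 1.55 ± 0.06 for Fos, 2.07 ± 0.10 for Fosb and 1.2 ± 0.05 for Jun. They were 1.54 ± 0.05 for Junb, 1.45 ± 0.07 for Atf3 and 1.92 ± 0.13 for Egr1. The rest were 1.64 ± 0.07 for Nr4a1 and 1.04 ± 0.05 for Ier2, then 1.03 ± 0.05 for Dusp1 and 1.67 ± 0.06 for Zfp36. Adult 1 ECs came mostly from 1 cluster (774 of 856 cells, cluster 13) that held 49 and 42 ECs of Adult 2 and 3, carried 50200 CPM of *Ttr* against 20600 and 20000, and had summed EC markers of 21200 CPM against 23400 and 23500. Summed erythroid markers (5 of 5 detected) were 19600 CPM in Adult 1 ECs against 1180 and 1320. The part of free RNA and of cell makeup in these differences was not tested.

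In PVM of the adult libraries, 9 members were higher in Adult 2 and 3, where 2.92% of genes were, with a median of 1.15. *Nr4a1* was 128 CPM in Adult 1 against 439 and 389. Log2 differences in PVM were 1.34 ± 0.15 for Fos, 1.37 ± 0.20 for Fosb, 0.72 ± 0.09 for Jun and 0.95 ± 0.11 for Junb. Those of the other genes were 1.26 ± 0.17 for Egr1, 1.68 ± 0.16 for Nr4a1, 0.78 ± 0.12 for Ier2, 1.03 ± 0.12 for Dusp1 and 1.05 ± 0.13 for Zfp36. Beside this, PVM of Adult 1 held summed choroid plexus markers of 56200 CPM against 22500 and 23700, and erythroid ones of 13800 against 264 and 292. Mural markers summed to 260 CPM against 69.2 and 67.3, and astrocyte markers to 178 against 38.1 and 40.4. Their part was not tested. *Atf3* was not called in PVM, with 295 CPM in Adult 1 against 749.6 and 1073. In Micro, 6 members were higher (3.34% of genes) and *Junb* was lower (3.28% of genes). In Adult 1 Micro, summed choroid plexus markers were 58600 CPM against 23000 and 24500, and mural markers 235 against 82.2 and 81.3. Astrocyte markers were 315 against 134 and 143, and PVM markers 159 against 72.6 and 53.3, and their part was not tested. The values in Micro were 0.43 ± 0.09 for Fos, 1.13 ± 0.24 for Fosb, 0.51 ± 0.09 for Atf3 and 1.24 ± 0.12 for Egr1. *Ier2*, *Dusp1* and *Junb* gave 0.80 ± 0.10 for Ier2, 0.45 ± 0.09 for Dusp1 and -0.21 ± 0.06 for Junb. With 1 library left out the call ended for Fosb without Adult 3 (0.93 to 1.26), with the range over all such fits in brackets. Of the Adult 1 Micro, 333 of 386 were in cluster 22, which held 5 and 6 Micro of the other adult libraries.

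Choroid plexus epithelium was higher in Adult 2 and 3 for 6 members (8.7% of genes), with 0.57 ± 0.09 for Fos, 1.92 ± 0.18 for Fosb and 0.77 ± 0.14 for Egr1. Smaller differences were 0.42 ± 0.10 for Nr4a1, 0.59 ± 0.09 for Ier2 and 0.28 ± 0.07 for Dusp1, and the last lost its call without Adult 3 (0.24 to 0.34 over the fits). In Fibro, with 18 to 23 cells in each adult library, 2.61 ± 0.51 for Nr4a1 and 1.48 ± 0.31 for Junb were the values of 2 members called higher, where 1.03% of genes were. The call of *Junb* in Fibro was lost without Adult 3 (1.27 to 1.64). Adult 1 Fibro had summed Fibro markers of 4980 CPM against 8990 and 8180 and *Ttr* of 49200 against 15500 and 17300, and their part was not tested. In mural cells all 10 members were above 0 with a median of 1.57, yet none passed (edgeR), and over all types 98 of 119 values were above 0.

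Between the juvenile sets, 37 of 100 tests over 10 types were higher in Juvenile 1 and 2 than in Juvenile 3 and 4 and 1 was lower, against 4.88% and 4.23% of all tests. This too is 1 set against 1, with the spread of near-identical libraries as its error. Astrocytes had 8 members higher (1.94% of genes). *Nr4a1* in astrocytes was 133 and 106 CPM in Juvenile 1 and 2 against 25.3 and 31.9 in Juvenile 3 and 4. Log2 differences in astrocytes were 2.0 ± 0.23 for Nr4a1, 1.07 ± 0.15 for Dusp1, 1.22 ± 0.17 for Junb and 0.84 ± 0.14 for Jun. The others were 1.26 ± 0.33 for Fosb, 1.16 ± 0.28 for Atf3, 0.81 ± 0.18 for Egr1 and 0.71 ± 0.17 for Ier2. Calls in astrocytes were lost with 1 library left out for Fosb and Ier2 without Juvenile 1, Juvenile 2 or Juvenile 4 (0.81 to 1.92 and 0.41 to 1.07), Jun without Juvenile 4 or Adult 1 (0.68 to 0.97), Junb without Adult 1, Adult 2 or Adult 3 (1.04 to 1.38), Egr1 and Atf3 without Juvenile 1 or Juvenile 4 (0.65 to 0.91 and 0.93 to 1.37). *Ttr* in astrocytes was 7430 and 8650 CPM against 19100 and 22500, and summed astrocyte markers 12400 and 13000 against 15100 and 15300. Their part was not tested.

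EC of the juvenile sets had 8 members higher (11.9% of genes) with a median of 0.44. The values were 0.30 ± 0.04 for Fos, 0.96 ± 0.09 for Fosb, 0.59 ± 0.04 for Junb and 0.56 ± 0.06 for Atf3. The remaining ones were 0.83 ± 0.05 for Nr4a1, 0.51 ± 0.05 for Zfp36, 0.37 ± 0.10 for Egr1 and 0.11 ± 0.04 for Jun. Leaving out 1 library ended the calls for Jun without Juvenile 1, Juvenile 3 or Adult 2 (0.07 to 0.15), Egr1 without Juvenile 1 or Juvenile 3 (0.27 to 0.47). *Ttr* in juvenile ECs was 3740 and 4520 CPM in Juvenile 1 and 2 against 8610 and 8500 in Juvenile 3 and 4, and the median UMIs of an EC were 7225 and 8317 against 5712.5 and 5018. Summed EC markers were 10900 and 10800 CPM against 14800 and 15100. The part of these in the differences was not tested.

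In PVM 7 members were higher in Juvenile 1 and 2 (2.08% of genes). *Fosb* in PVM was 149 and 142 CPM against 31.9 and 62.7, the largest of these differences. Log2 values in PVM were 1.59 ± 0.24 for Fosb, 0.85 ± 0.10 for Dusp1, 0.52 ± 0.07 for Jun and 0.65 ± 0.11 for Zfp36. Those of *Nr4a1*, *Egr1* and *Fos* were 0.76 ± 0.16 for Nr4a1, 0.66 ± 0.18 for Egr1 and 0.48 ± 0.12 for Fos. Here the calls ended for Fos without Juvenile 1, Juvenile 3, Adult 1, Adult 2 or Aged 1 (0.30 to 0.69), Egr1 without Juvenile 1, Juvenile 2, Juvenile 3 or Juvenile 4 (0.49 to 0.86), Nr4a1 without Juvenile 3 (0.54 to 1.02). Summed choroid plexus markers in PVM were 8100 and 6530 CPM in Juvenile 1 and 2 against 12700 and 21600 in Juvenile 3 and 4, and mural markers 87.7 and 101 against 29.8 and 24.6, and their part was not tested. Micro had 7 members higher (8.58% of genes), with 1.47 ± 0.17 for Fosb, 0.80 ± 0.09 for Nr4a1, 0.50 ± 0.07 for Fos and 0.46 ± 0.07 for Egr1. The smaller differences in Micro were 0.29 ± 0.07 for Atf3, 0.28 ± 0.07 for Dusp1 and 0.19 ± 0.06 for Zfp36. These calls ended for Atf3 and Dusp1 without Juvenile 1 or Juvenile 3 (0.21 to 0.36 and 0.25 to 0.29), Zfp36 without Juvenile 1, Juvenile 2, Juvenile 3 or Juvenile 4 (0.16 to 0.21). Summed Micro markers were 8190 and 8160 CPM in Juvenile 1 and 2 against 11000 in Juvenile 3 and in 4, and choroid plexus markers 5550 and 6470 against 15300 and 13100, a part not tested.

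Mural cells had 3 members higher (2.47% of genes): 1.33 ± 0.20 for Jun, 2.03 ± 0.37 for Atf3 and 1.45 ± 0.29 for Dusp1. In mural cells calls ended for Atf3 without Juvenile 4 (1.79 to 2.38), Dusp1 without Juvenile 1, Juvenile 2 or EAE 1 (1.12 to 1.90). Choroid plexus epithelium had 3 higher (3.38% of genes), 0.58 ± 0.08 for Fos, 0.59 ± 0.16 for Atf3 and 0.44 ± 0.14 for Ier2, and *Junb* lower (3.33% of genes), -0.48 ± 0.08 for Junb. Its calls were lost for Atf3 without Juvenile 2 or Juvenile 3 (0.32 to 0.84), Ier2 without Juvenile 2 or Juvenile 4 (0.32 to 0.58). Cluster 3 held 4 and 8 of these cells in Juvenile 1 and 2 but 151 and 159 in Juvenile 3 and 4. Summed markers of this type were 366000 and 369000 CPM against 333000 in each of the other 2, and the part of both was not tested. In Fibro only *Fosb* was called among the 10 (7.64% of genes were higher), 0.69 ± 0.17 for Fosb, and its call was lost without any of the 4 juvenile libraries (0.66 to 0.69). *Ttr* in Fibro was 4930 and 5270 CPM against 13600 and 14900, a part not tested. Ependymal cells, neurons and monocytes or macrophages had no member called (edgeR), with values from -0.68 to 1.13.

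**Figure D3:**
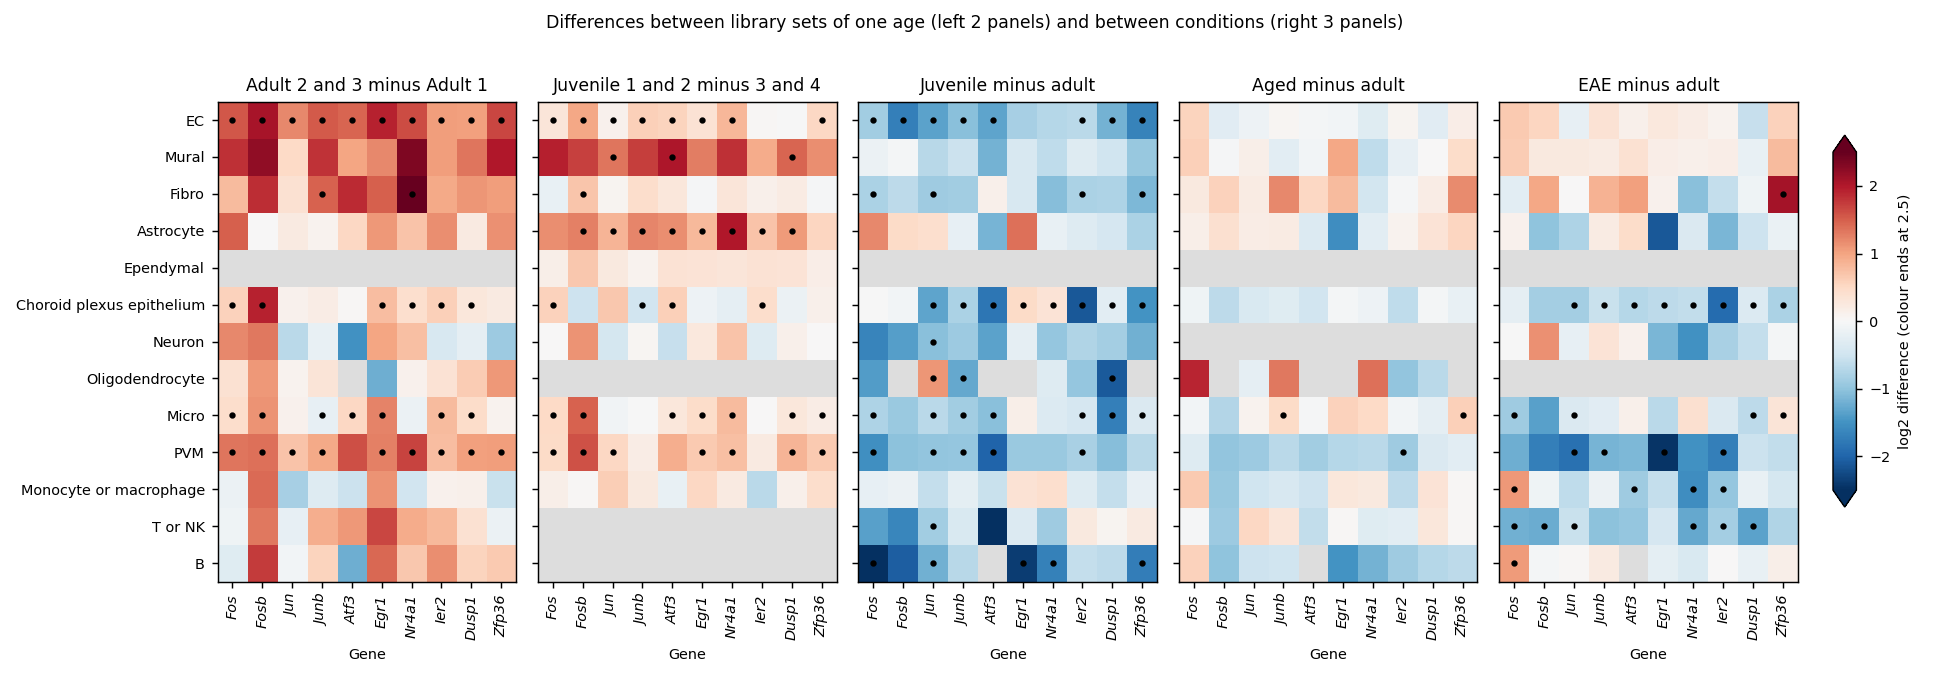
Log2 differences of the members (columns) by cell type (rows) for the 2 comparisons within one age and the 3 between conditions, coloured from blue (lower in the first named) to red (higher) with the colour ending at 2.5; dots mark an adjusted p under 0.05 and grey fields were not tested. The left 2 panels are mostly red (98 of 119 and 84 of 100 values above 0), and the juvenile panel is mostly blue (101 of 115 values below 0).

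Condition effects are given from the fit over all 11 libraries, in which libraries of one set count as separate samples, and then from the fit with each set summed into 1 sample. The 3 comparisons share the adult libraries, so Adult 1 enters all of them. In the summed fit, juvenile and adult mice are 2 samples each, and aged and EAE mice 1 sample each. Its spread comes from the juvenile and adult sets alone, and the lone aged or EAE sample is taken to vary like them. Against adult, juvenile mice had 39 of 115 tests lower and 3 higher over 12 types, where 15% of all tests were lower and 13.9% higher. With sets summed fewer passed, and all genes called there in either direction are given in brackets. Lower were 5 of 10 members in choroid plexus epithelium (5495 of 14810 genes) and 3 in Micro (1004 of 12845). B cells had 3 lower (105 of 6305) and T or NK cells 3 (113 of 5957). Astrocytes had 1 higher (791 of 9560), and EC had none called (edgeR, 2776 of 15658). Oligodendrocytes had 1 juvenile sample there and are not counted. No other type had a member called (edgeR).

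Calls made in both fits lay in choroid plexus epithelium (5), Micro (3) and B cells (3). In oligodendrocytes the summed fit had 1 juvenile sample, so no call is read from it. The summed fit alone called *Egr1* higher in astrocytes (1.39, adjusted p = 0.0125), and *Fos*, *Fosb* and *Atf3* in T or NK cells (-1.61, -1.63 and -4.21, adjusted p = 0.00995, 0.0397 and 0.000193) lower. It gave -1.41 for *Fos* in oligodendrocytes. In T or NK cells *Atf3* had 0 UMIs in Juvenile 3 and 4 and 2 in the 13 cells of Juvenile 1, so its -4.21 is a fitted value and no bound. *Fosb* in oligodendrocytes was tested in the summed fit alone and had 0 UMIs in both juvenile libraries. In choroid plexus epithelium, *Ier2* was 36.5, 43.8, 31 and 28.5 CPM in the juvenile libraries against 99.4, 137 and 144 in the adult ones. *Atf3* there was 24.8, 35.4, 19.2 and 21.3 against 75.2, 71.2 and 70.8 CPM. Juvenile cells of this type lay mostly in cluster 10 and adult ones in cluster 3. In it 6 members were lower (30.8% of genes were) and 2 higher (29.8%). Log2 differences were -2.11 ± 0.18 for Ier2 (adjusted p = 5.56e-07), -1.81 ± 0.14 for Atf3 (adjusted p = 9.45e-10), -1.50 ± 0.12 for Zfp36 (adjusted p = 1.01e-09), -1.31 ± 0.20 for Jun (adjusted p = 0.000225) and -0.80 ± 0.12 for Junb (adjusted p = 8.49e-06). All of these 5 held with sets summed: -1.98 for Ier2 (adjusted p = 0.000249), -1.74 for Atf3 (adjusted p = 4.14e-05), -1.45 for Zfp36 (adjusted p = 6.85e-05), -1.27 for Jun (adjusted p = 0.00127) and -0.76 for Junb (adjusted p = 0.0136). The other calls, -0.26 ± 0.10 for Dusp1 (adjusted p = 0.0294), 0.47 ± 0.18 for Egr1 (adjusted p = 0.0393) and 0.34 ± 0.11 for Nr4a1 (adjusted p = 0.0132), did not (adjusted p 0.114 to 0.453). With 1 library left out, calls ended for Egr1 without Juvenile 1, Juvenile 2, Juvenile 3, Juvenile 4 or Adult 1 (0.22 to 0.68), Nr4a1 without Adult 1 (0.21 to 0.41), Dusp1 without Juvenile 1, Juvenile 2, Adult 2 or Adult 3 (-0.35 to -0.20). *Nr4a1* turned to -0.20 when cells were named by marker scores alone.

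In Micro, 7 members were lower in juvenile mice (14% of genes). *Dusp1* in Micro was 289, 278, 227 and 229 CPM in juvenile libraries against 654, 864 and 949 in adult ones. *Junb* was 2256, 2201, 2190.5 and 2194 against 4326, 3791 and 3830.1 CPM, so the juvenile libraries were near-equal across both sets and apart from all adult ones. Log2 differences in Micro were -1.70 ± 0.12 for Dusp1 (adjusted p = 1.9e-08), -1.05 ± 0.13 for Atf3 (adjusted p = 9.5e-06) and -0.87 ± 0.09 for Junb (adjusted p = 6.69e-07), and -1.59 for Dusp1 (adjusted p = 0.00429), -0.94 for Atf3 (adjusted p = 0.0408) and -0.86 for Junb (adjusted p = 0.0273) with sets summed. Values not called with sets summed (adjusted p 0.0868 to 0.583) were -0.77 ± 0.14 for Fos (adjusted p = 0.000657), -0.67 ± 0.08 for Jun (adjusted p = 9.26e-06), -0.37 ± 0.09 for Zfp36 (adjusted p = 0.00601) and -0.42 ± 0.15 for Ier2 (adjusted p = 0.0465). The call of *Ier2* in Micro was lost without any library but Adult 1 (-0.65 to -0.25). Juvenile Micro lay mostly in cluster 2 (780 to 882 cells a library), as did those of Adult 2 and 3 (261 and 289), and those of Adult 1 in cluster 22. Summed choroid plexus markers in juvenile Micro were 5550 to 15300 CPM against 23000 to 58600 in adult Micro, EC markers 200 to 227 against 1100 to 1390, and their part was not tested.

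B cells of juvenile mice, 11 to 48 cells in the 3 libraries used, were lower in 5 members (6.52% of genes). *Fos* in B cells was 65.5, 73.6 and 23.7 CPM in Juvenile 2 to 4 against 331, 328 and 258 in the adult libraries. Log2 differences were -2.54 ± 0.36 for Fos (adjusted p = 0.0003), -2.37 ± 0.58 for Egr1 (adjusted p = 0.0193) and -1.72 ± 0.30 for Zfp36 (adjusted p = 0.00148), which held with sets summed (-2.51 for Fos (adjusted p = 0.000809), -2.20 for Egr1 (adjusted p = 0.00977) and -1.68 for Zfp36 (adjusted p = 0.0266)). Those of *Jun* and *Nr4a1* were -1.21 ± 0.25 for Jun (adjusted p = 0.00426) and -1.69 ± 0.35 for Nr4a1 (adjusted p = 0.00553) and did not hold (adjusted p = 0.157 and 0.0541). *Egr1* in B cells lost its call without Juvenile 4 or Adult 3 (-3.84 to -1.74). Summed B cell markers were 6680 to 8290 CPM in juvenile and 14900 to 19600 in adult libraries, and the part of this was not tested. In oligodendrocytes 2 members were lower (21% of genes) and *Jun* was higher (23.3% of genes): -2.09 ± 0.41 for Dusp1 (adjusted p = 0.000613), -1.27 ± 0.39 for Junb (adjusted p = 0.015) and 1.11 ± 0.21 for Jun (adjusted p = 0.000439). With sets summed these gave -2.09 for Dusp1, -1.31 for Junb and 1.03 for Jun. With 1 library left out the ranges were -3.26 to -1.48 for Dusp1 and 0.7 to 1.44 for Jun. *Junb* lost its call without Juvenile 1 or 2 (-1.37 to -1.18). Only Juvenile 1 and 2 had enough oligodendrocytes, 19 and 28. In this type the summed fit thus had 1 juvenile sample, and its spread came from the 2 adult sets alone, which holds for *Fos* and *Fosb* above too. Summed oligodendrocyte markers were 38300 and 57000 CPM in them against 57500 to 72300 in adult libraries, and the part of this was not tested.

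In EC, PVM and Fibro, the calls rested on libraries counted one by one. EC had 8 members lower in juvenile mice (25.1% of genes) and none with sets summed (edgeR, adjusted p 0.0794 to 0.516). Log2 differences in EC were -1.18 ± 0.19 for Dusp1 (adjusted p = 0.000386), -1.33 ± 0.23 for Jun (adjusted p = 0.000739), -1.32 ± 0.32 for Atf3 (adjusted p = 0.00983) and -1.67 ± 0.36 for Zfp36 (adjusted p = 0.00512). In these genes every juvenile library lay below every adult one, though *Atf3* rounded to 138 CPM in both Juvenile 2 and Adult 1. The share of all genes without such overlap was not counted. Of the other 4, *Fos* was above Adult 1 in all juvenile libraries, and *Fosb*, *Ier2* and *Junb* had juvenile libraries on both sides of Adult 1. Their log2 differences were -0.86 ± 0.31 for Fos (adjusted p = 0.0491), -1.70 ± 0.48 for Fosb (adjusted p = 0.0196), -0.67 ± 0.19 for Ier2 (adjusted p = 0.0148) and -1.05 ± 0.34 for Junb (adjusted p = 0.032). Their calls were lost for Fos without Juvenile 1, Juvenile 2, Juvenile 3, Juvenile 4, Adult 2, Adult 3, Aged 1, Aged 2, EAE 1 or EAE 2 (-1.21 to -0.61), Fosb and Ier2 without Adult 2 or Adult 3 (-2.11 to -1.39 and -0.93 to -0.51), Junb without Juvenile 3, Juvenile 4, Adult 2, Adult 3, EAE 1 or EAE 2 (-1.40 to -0.80). Juvenile ECs lay mostly in cluster 5 (464 to 968 cells a library), which held at most 10 ECs of any adult library. Summed EC markers were 10800 to 15100 CPM in juvenile against 21200 to 23500 in adult ECs, and choroid plexus markers 3920 to 8870 against 20900 to 52600. Their part was not tested.

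PVM had 5 members lower (8.54% of genes). The values were -0.81 ± 0.15 for Ier2 (adjusted p = 0.000996) and -0.99 ± 0.19 for Jun (adjusted p = 0.00483). Those of the other 3 were -0.97 ± 0.19 for Junb (adjusted p = 0.0032), -1.53 ± 0.34 for Fos (adjusted p = 0.0216) and -2.0 ± 0.48 for Atf3 (adjusted p = 0.033), with none called when sets were summed (adjusted p 0.119 to 0.397). Calls in PVM ended for Fos without Juvenile 2, Juvenile 4, Adult 2 or Adult 3 (-1.87 to -1.32), Atf3 without Juvenile 1, Juvenile 2, Juvenile 3, Juvenile 4, Adult 2, Adult 3, Aged 1, Aged 2, EAE 1 or EAE 2 (-2.37 to -1.57). Summed PVM markers were 13400 to 15000 CPM in juvenile against 7940 to 8620 in adult PVM, EC markers 201 to 323 against 1290 to 1760, and their part was not tested. *Jun* in PVM was 3716, 3549, 2356 and 2591 CPM in juvenile and 3881, 6079 and 6821 in adult libraries, so Juvenile 1 lay closer to Adult 1 than Adult 1 to Adult 2. Fibro had 4 members lower (2.88% of genes). The values were -0.89 ± 0.15 for Jun (adjusted p = 0.0078), -0.79 ± 0.19 for Fos (adjusted p = 0.0289), -0.79 ± 0.21 for Ier2 (adjusted p = 0.0471) and -1.13 ± 0.26 for Zfp36 (adjusted p = 0.022). None passed with sets summed (adjusted p 0.41 to 0.565). Calls in Fibro were lost for Fos without Juvenile 1, Juvenile 2, Juvenile 3, Adult 2, Adult 3, Aged 1 or Aged 2 (-0.99 to -0.57), Ier2 without Juvenile 1, Juvenile 2, Juvenile 3, Juvenile 4, Adult 2, Adult 3, Aged 1, Aged 2, EAE 1 or EAE 2 (-1.03 to -0.64), Zfp36 without Adult 2 or Adult 3 (-1.39 to -0.81). Summed Fibro markers were 9580 to 12000 CPM in juvenile against 4980 to 8990 in adult libraries, *Ttr* was 4930 to 14900 against 15500 to 49200, and their part was not tested. *Jun* was also lower in neurons (2.43% of genes), -1.04 ± 0.21 (adjusted p = 0.00509), lost without Adult 1 (-1.28 to -0.80). It was lower in T or NK cells as well (3.14% of genes), -0.87 ± 0.21 (adjusted p = 0.0253), lost without Juvenile 3 or 4 (-1.02 to -0.80). Neither held with sets summed (adjusted p = 0.0627 and 0.212).

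Between aged and adult mice, 3 of 105 tests over 11 types passed, 2 higher and 1 lower, where 1.69% and 1.78% of all tests did. Without Adult 1 the count was 17, and without Aged 1 it was 0 (edgeR). With sets summed, 1 of 110 passed, *Fos* in oligodendrocytes. It was 1706 and 675 CPM in the 14 and 15 aged cells against 251, 204 and 465 in adult libraries and was not called with libraries separate. That summed call sets 1 aged sample against the spread of the 2 adult sets, so no difference is read from it. In Micro (1.78% of genes higher), *Junb* was 5408 and 5312 CPM in the aged libraries against 4326, 3791 and 3830.1 in the adult ones, and *Zfp36* was 1309 and 1275 against 847, 926 and 893. The log2 differences were 0.47 ± 0.10 for Junb (adjusted p = 0.0181) and 0.59 ± 0.11 for Zfp36 (adjusted p = 0.00628). In aged Micro, summed neutrophil markers were 313 and 328 CPM against 22.8 to 66.1 in adult Micro, and choroid plexus markers 7840 and 9330 against 23000 to 58600. Their part was not tested. In PVM (1.91% of genes lower), *Ier2* was 370.5 and 374 CPM in aged against 489, 815 and 877 in adult libraries, -0.88 ± 0.19 (adjusted p = 0.00881). None of the 3 held with sets summed (adjusted p = 0.745, 0.728 and 0.569). In the aged PVM, summed dendritic cell markers were 1140 and 1000 CPM against 132 to 177 in adult PVM, and neutrophil markers 274 and 329 against 26.1 to 55.1. Their part in *Ier2* was not tested. Calls in Micro were lost for Junb without Adult 2, Adult 3, Aged 1 or Aged 2 (0.41 to 0.55), Zfp36 without Aged 1 or Aged 2 (0.56 to 0.60), and that in PVM for Ier2 without Aged 1 or Aged 2 (-1.10 to -0.73). In EC, aged values ran from -0.31 to 0.56 with none called (edgeR).

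At the EAE peak, 24 of 109 tests over 11 types were lower than in adult mice and 4 higher, where 10.2% of all tests were lower and 11.2% higher. Without EAE 1 the calls were 14 and without EAE 2 they were 12. With sets summed, with EAE as 1 sample, few of these calls remained, all lower, and no excess over all genes is read from them. They were *Jun* and *Ier2* in PVM, and *Ier2* and *Zfp36* in choroid plexus epithelium. In PVM (8.8% of genes lower), *Jun* was 1321 and 1398 CPM in the EAE libraries against 3881, 6079 and 6821 in the adult ones. *Ier2* in PVM was 205 and 193 against 489, 815 and 877, and *Egr1* 42.7 and 41.1 against 135, 269.6 and 382 CPM. The EAE libraries lay below all 3 adult ones in these genes, and below the aged and juvenile ones too. Log2 differences were -1.87 ± 0.25 for Jun (adjusted p = 0.000196), -1.70 ± 0.19 for Ier2 (adjusted p = 1.38e-06), -1.17 ± 0.23 for Junb (adjusted p = 0.00242) and -2.45 ± 0.47 for Egr1 (adjusted p = 0.00758), and with sets summed -1.74 for Jun (adjusted p = 0.0154) and -1.57 for Ier2 (adjusted p = 0.0145). The call of *Egr1* was lost without EAE 1 or EAE 2 (-2.79 to -2.09). The other 6 members in PVM were below 0 as well, and the median was -1.37 against -0.02 over all genes. All 7 PVM markers were detected in the EAE libraries, with sums of 6740 and 6560 CPM against 7940 to 8620 in adult PVM, *Ttr* was 5970 and 6150 against 21700 to 53800 CPM, and erythroid markers summed to 105 and 75.9 against 264 to 13800. Summed markers of monocytes or macrophages were 364 and 350 CPM in EAE PVM against 77.1 to 109 in adult PVM. Those of neutrophils were 188 and 214 against 26.1 to 55.1, and those of Micro 396 and 397 against 685 to 865. The part of all these in the PVM values was not tested.

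In choroid plexus epithelium of EAE mice (20.2% of genes lower), 8 members were lower. Of these cells, 227 of 425 in EAE 1 and 248 of 489 in EAE 2 were in cluster 15, while the adult ones were mostly in cluster 3 (983, 804 and 812, against 139, 57 and 61 in cluster 15). Their own markers summed to 328000 and 321000 CPM in EAE against 341000 to 362000, and the part of this was not tested. *Ier2* was 39.1 and 34.5 CPM against 99.4, 137 and 144 in adult libraries, with log2 -1.93 ± 0.22 (adjusted p = 2.93e-05), and -1.83 (adjusted p = 0.00722) with sets summed. *Zfp36* was 48 and 46.9 against 70.6, 68.8 and 85.2 CPM, log2 -0.80 ± 0.14 (adjusted p = 0.000126) and -0.75 (adjusted p = 0.0408). The others were -0.85 ± 0.24 for Jun (adjusted p = 0.0184), -0.71 ± 0.15 for Atf3 (adjusted p = 0.000947) and -0.66 ± 0.23 for Egr1 (adjusted p = 0.0369). *Nr4a1*, *Junb* and *Dusp1* gave -0.62 ± 0.14 for Nr4a1 (adjusted p = 0.00153), -0.55 ± 0.14 for Junb (adjusted p = 0.00501) and -0.35 ± 0.12 for Dusp1 (adjusted p = 0.0281). Calls were lost for Jun without Adult 1, Adult 2, Adult 3, EAE 1 or EAE 2 (-0.92 to -0.77), Junb without EAE 2 (-0.57 to -0.45), Egr1 without Juvenile 1, Adult 2, Adult 3, EAE 1 or EAE 2 (-0.87 to -0.41), Dusp1 without Adult 2, Adult 3, EAE 1 or EAE 2 (-0.40 to -0.24). When cells were named by marker scores alone the sign turned for *Atf3* (0.54), *Junb* (0.53) and *Zfp36* (0.86), so the direction of these 3 in this type depends on how its cells are named.

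T or NK cells had 6 members lower in EAE (12.1% of genes). *Dusp1* in T or NK cells was 264 and 275 CPM against 563, 657 and 809. Log2 differences were -1.33 ± 0.19 for Dusp1 (adjusted p = 0.000149), -1.27 ± 0.31 for Nr4a1 (adjusted p = 0.0114) and -1.24 ± 0.30 for Fosb (adjusted p = 0.0104). Those of the other 3 were -1.2 ± 0.37 for Fos (adjusted p = 0.0389), -0.84 ± 0.23 for Ier2 (adjusted p = 0.0138) and -0.55 ± 0.19 for Jun (adjusted p = 0.0465). In T or NK cells calls ended for Fos without Adult 1, Adult 2, Adult 3, Aged 1, Aged 2, EAE 1 or EAE 2 (-1.31 to -1.10), Fosb without Adult 2, EAE 1 or EAE 2 (-1.58 to -0.95), Jun without Juvenile 3, Juvenile 4, Adult 1, Adult 2, Aged 1, Aged 2, EAE 1 or EAE 2 (-0.65 to -0.46), Nr4a1 and Ier2 without EAE 1 or EAE 2 (-1.52 to -0.96 and -1.06 to -0.65). The adult libraries held 43, 51 and 45 of these cells and the EAE libraries 924 and 862. Summed T or NK markers were 6370 and 5990 CPM in EAE against 3980 to 5310, and the part of cell makeup was not tested. In monocytes or macrophages, likewise 12 to 33 cells in an adult library and 1039 and 945 in EAE, *Fos* was higher (14% of genes) and 3 members were lower (15% of genes). *Fos* there was 2078 and 2033 CPM against 1063, 892 and 895, 1.08 ± 0.22 (adjusted p = 0.000462). *Nr4a1* was 220.3 and 220.1 against 822, 609 and 491 CPM, -1.55 ± 0.26 (adjusted p = 5.89e-05). The other values were -0.96 ± 0.23 for Ier2 (adjusted p = 0.00303) and -0.88 ± 0.25 for Atf3 (adjusted p = 0.009). Of these, calls ended for Atf3 and Ier2 without EAE 1 or EAE 2 (-1.07 to -0.67 and -1.0 to -0.89). Their own markers summed to 8850 and 8400 CPM in EAE and to 3400, 2350 and 2270 in the adult libraries (5 or 6 of 7 detected). The part of this, and of any dendritic cells in their cluster, was not tested. None of these held with sets summed (adjusted p 0.0623 to 0.464 in monocytes or macrophages and 0.0986 to 0.758 in T or NK cells).

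In Micro of EAE mice 3 members were lower (13.5% of genes) and *Zfp36* higher (14.2%). *Fos* in Micro was 319.7 and 296 CPM against 533, 729 and 729, and log2 differences were -0.89 ± 0.17 for Fos (adjusted p = 0.00103), -0.66 ± 0.15 for Dusp1 (adjusted p = 0.00279), -0.37 ± 0.10 for Jun (adjusted p = 0.0103) and 0.33 ± 0.11 for Zfp36 (adjusted p = 0.0316). Calls ended for Jun without EAE 1 or EAE 2 (-0.41 to -0.30), Dusp1 without EAE 2 (-0.80 to -0.54), Zfp36 without Adult 1, Adult 2, Adult 3, EAE 1 or EAE 2 (0.29 to 0.40). None held with sets summed (adjusted p 0.163 to 0.467). EAE Micro lay in cluster 6 (1334 of 1411 cells and 1371 of 1429), where adult libraries had 7 to 8 cells. Summed Micro markers were 4470 and 4370 CPM in EAE Micro against 9640 to 10700 in adult Micro. Markers of monocytes or macrophages were 309 and 281 against 41.1 to 56.1, those of neutrophils 194 and 223 against 22.8 to 66.1, and choroid plexus markers 11000 and 8240 against 23000 to 58600. Their part was not tested. *Zfp36* was also higher in Fibro (2.61% of genes), with 959 and 1121 CPM against 147, 264 and 379, 2.08 ± 0.28 (adjusted p = 0.00255). Of the EAE Fibro, 13 of 20 in EAE 1 and 9 of 18 in EAE 2 were in cluster 25 and the rest in cluster 14, which held 21 of 23, 19 of 22 and 15 of 18 adult ones. *Ttr* in Fibro was 5530 and 5790 CPM in EAE against 49200, 15500 and 17300 in the adult libraries, and the part of both was not tested. *Fos* was higher in B cells (6.89% of genes), with 494 and 459 against 331, 328 and 258 CPM, 1.07 ± 0.29 (adjusted p = 0.0215), lost without Adult 2, Adult 3, EAE 1 or EAE 2 (0.87 to 1.13). Summed B cell markers were 31000 and 56800 CPM in EAE against 14900 to 19600 in adult B cells, a part not tested. Neither held with sets summed (adjusted p = 0.215 and 0.438). EC, mural cells, astrocytes and neurons had no member called in EAE (edgeR), with EC values from -0.57 to 0.65. Adult 2 and 3 ECs lay mostly in cluster 1, those of Adult 1 in cluster 13, and EAE ECs in clusters 0 and 4.

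Whether a condition acted on a member unlike it did in EC was tested as the difference of the differences, with library as block. Of 270 tests over 9 types, 68 passed (28 for juvenile, 10 for aged, 30 for EAE), where 12.3%, 0.94% and 7.28% of all gene tests did. Fewer passed with sets summed, with aged and EAE again as 1 sample each, and the share of all genes in that fit was not taken. The level of Adult 1 enters both types of a pair here. For EAE, PVM stood apart from EC in 9 members, all lower. The share of all genes is not given for this pair alone, so no excess over all genes is read from that count. *Fos* in PVM had -1.22 and in EC 0.65 on the log2 scale, and *Egr1* -2.45 and 0.26. The differences of PVM from EC were -2.75 ± 0.21 for Egr1 (adjusted p = 3.63e-13), -2.28 ± 0.20 for Fosb (adjusted p = 2.24e-11), -1.86 ± 0.14 for Fos (adjusted p = 1.35e-18), -1.76 ± 0.15 for Ier2 (adjusted p = 6.67e-16) and -1.67 ± 0.14 for Jun (adjusted p = 2.84e-11). They were -1.66 ± 0.15 for Nr4a1 (adjusted p = 1.75e-14), -1.58 ± 0.17 for Junb (adjusted p = 2.45e-07), -1.22 ± 0.15 for Zfp36 (adjusted p = 4.54e-09) and -1.18 ± 0.20 for Atf3 (adjusted p = 0.000818) for the rest, each called with sets summed and without any 1 library too. Micro differed from EC in EAE for -2.07 ± 0.23 for Fosb (adjusted p = 1.73e-07), -1.67 ± 0.27 for Fos (adjusted p = 0.000614) and -1.04 ± 0.16 for Egr1 (adjusted p = 1.76e-05), also with sets summed. *Ier2* in Micro, -0.46 ± 0.16 for Ier2 (adjusted p = 0.0406), was not called with sets summed or without any 1 of Juvenile 1, Juvenile 3, Juvenile 4, Adult 1, Adult 2, Aged 1, Aged 2, EAE 1 or EAE 2. Between the adult sets, the median log2 difference of the members was 1.55 in EC, 1.15 in PVM and 0.44 in Micro. Types thus differed from EC between sets of one age too, and those differences were not tested.

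Cells of a type were thinned to 1500 UMIs each to compare shares of cells across depths. Shallower cells did not enter. Among ECs that removed 1.28% in juvenile, 5.86% in adult, 13.1% in EAE and 13.4% in aged mice, and among Micro 0.902% in juvenile but 34.3% in adult mice. At that depth *Fos* was seen in 35.1% of Adult 1 ECs (95% exact binomial interval 31.8 to 38.5, counting error only, as for all such intervals) and in 63.7% and 65.9% of Adult 2 and 3 ECs, whereas without thinning the shares were 52.7%, 78.7% and 78.8%. Juvenile ECs had *Fos* in 51.3%, 49.2%, 36.7% and 37.6% of thinned cells (83.8%, 86.8%, 65.7% and 63.2% without thinning). No type here is known to lack *Fos*. In choroid plexus epithelium, the type with the lowest mean level, the shares were 13.7% to 27.6% after thinning (42.8% to 75.4% before, at median depths of 3826 to 11609 UMIs). In aged and EAE ECs the share with *Fos*, 58.0% to 58.9% (64.6% to 67.9% before), was below that of Adult 2 and 3 although the CPM was above it, so no order is read from that share.

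The spread over cells differed as well. The UMIs of the 10 members together had a median of 15 and 16 in ECs of Adult 2 and 3, with 10th to 90th percentiles of 5 to 35 and 5 to 38. Adult 1 ECs had a median of 6 (2 to 15). The aged ECs had medians of 10 with 90th percentiles of 32 and 34, and the EAE ECs medians of 8 with 90th percentiles of 32 and 31, so the upper tail came close to that of Adult 2 and 3 while the median did not. In PVM the medians were 24 and 26 in Adult 2 and 3, 11 in Adult 1, 7 and 8 in aged, 4 and 5 in EAE, and 14, 14, 7 and 9 in the juvenile libraries. At least 5 of the 10 members were seen in 76.0% and 80.3% of PVM of Adult 2 and 3, in 45.8% of Adult 1 and in 27.4% and 26.7% of EAE. *Fos* in thinned PVM was seen in 35.2% and 39.2% in EAE (50.7% and 57.4% before) against 56.4%, 80.9% and 78.7% in the adult libraries (75.5%, 92.6% and 91.0% before). Micro had medians of 10 to 12 in juvenile, 17 to 17.5 in adult, 19 in aged and 13 and 12 in EAE libraries.

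**Figure D4:**
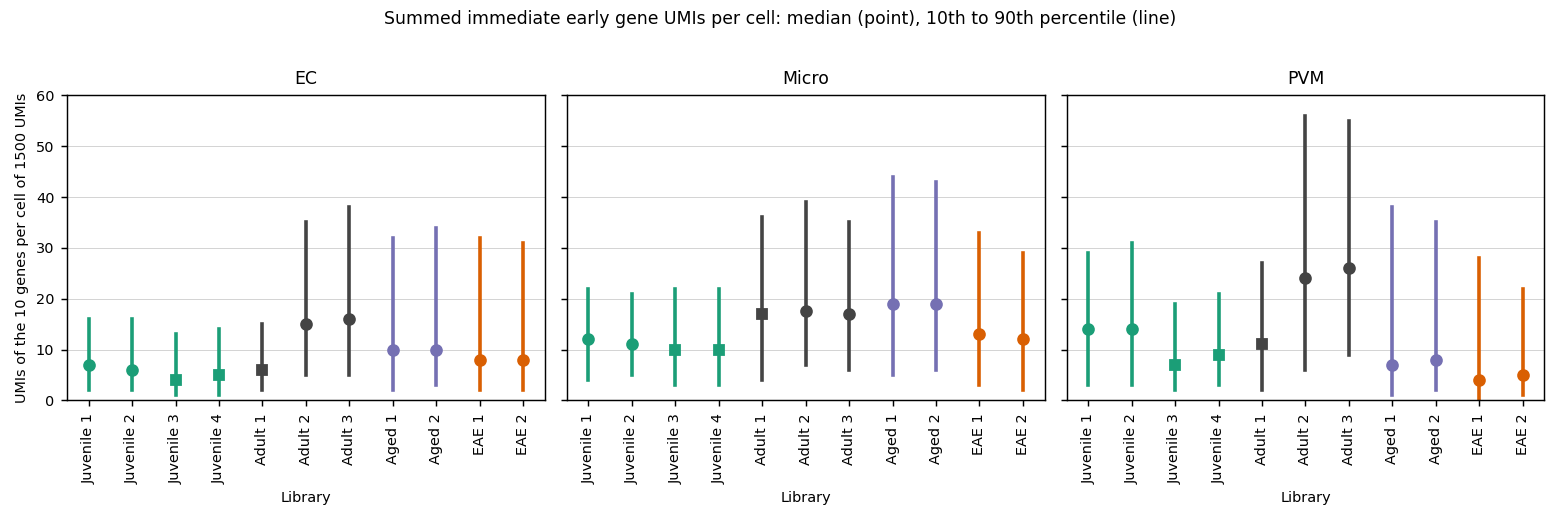
UMIs of the 10 members together in each cell thinned to 1500 UMIs, by library, with the median as a point and the 10th to 90th percentile as a line, in EC, Micro and PVM; squares mark Juvenile 3, Juvenile 4 and Adult 1. In PVM the medians run from 4 in EAE 1 to 26 in Adult 3, and in EC from 4 in Juvenile 3 to 16 in Adult 3.

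Other genes of the response were read from lists. Their counts come from the fits with libraries separate. The share of all genes called in the same direction stands beside them, and for the conditions the count with sets summed. Of 20 other immediate early genes, 18 were tested in EC, and 14 were higher in Adult 2 and 3 than in Adult 1 with none lower (median log2 1, against 0.03 over all genes; 9.88% of genes were higher). In PVM it was 11 of 16 (median 1.08; 2.92% of genes) and in Micro 8 of 16 (0.54; 3.34%). Between the juvenile sets, 9 of 18 in EC were higher (11.9% of genes) and 1 lower (11.8%; median 0.27), while in choroid plexus epithelium 1 of 17 was higher (3.38%) and 5 were lower (3.33%; median -0.07). In EAE, 7 of 15 were lower in PVM (8.8% of genes) with none higher (median -0.82), and 1 of 17 was lower with sets summed. In EAE EC 4 of 18 were higher, near the 18.5% of all genes (median 0.23), and 1 of 19 with sets summed.

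Upstream kinases and factors, which carry the signal to these promoters, were higher in 2 of 11 in EC between the adult sets (median 0.13; 9.88% of genes). In EAE none of 10 was called in PVM (edgeR, median -0.12), EC had 3 of 11 higher (18.5% of genes) and 1 lower (14.5%), and Micro had 4 of 10 lower (13.5% of genes; median -0.33). None of these EAE calls was made with sets summed (edgeR). Of 7 reference genes, 2 were higher in EC between the adult sets (0.09; 9.88% of genes), and 5 were higher in Micro of Juvenile 1 and 2 (0.28; 8.58%). In EAE EC 3 were higher (18.5% of genes) and 2 lower (14.5%; median 0.35). In EAE choroid plexus epithelium 1 was higher (18.1%) and 4 were lower (20.2%; median -0.53, where the members had -0.69). With sets summed none was called in either type (edgeR). Against adult, juvenile mice had 4 of 7 higher in EC (0.33; 23.9% of genes) and 4 of 7 in PVM (0.34; 6.78%), and 2 in EC and none in PVM with sets summed (edgeR).

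Heat shock genes encode chaperones induced by misfolded protein. All 10 were lower in PVM of EAE mice (median -1.65; 8.8% of genes), 3 of them with sets summed. In EAE Micro 5 were lower (13.5% of genes) and 1 higher (14.2%; median -0.53). EAE EC had 2 lower (14.5%) and 1 higher (18.5%; median -0.02), and neither type had any called with sets summed (edgeR). In juvenile mice 8 were lower and 1 higher in EC (-0.88; 25.1% of genes lower and 23.9% higher), 9 were lower in Micro (-0.88; 14%), 9 in choroid plexus epithelium (-0.79; 30.8%) and 7 in PVM (-0.84; 8.54%). With sets summed these counts were 4, 4, 9 and 2, all lower. In aged Micro 8 of 10 were lower with none higher (median -1; 1.31% of genes), although *Junb* and *Zfp36* were higher there, and none of the 8 was called with sets summed (edgeR). Between the adult sets 8 were higher in PVM (0.77; 2.92%) whereas 6 were lower in Micro (-0.33; 3.28%), and EC had 4 higher (9.88%) and 3 lower (9%; median 0.02). Between the juvenile sets 7 were higher and 1 lower in EC (0.23; 11.9% higher and 11.8% lower) and 6 were higher in PVM (0.43; 2.08%), while Micro had 2 higher (8.58%) and 4 lower (7.86%; median -0.18).

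Early NF-kB targets were higher in EC of EAE mice in 5 of 10 (median 1.2, 18.5% of genes), most of them not called with sets summed. Between the adult sets, EC likewise had 5 of 10 higher (9.88%) and 1 lower (9%, median 0.54). EAE PVM had none of 10 called (edgeR, median -0.35), and EAE Micro had 2 higher (14.2%) and 1 lower (13.5%, median 0.39). In Juvenile 1 and 2, 9 of 10 were higher in Micro (0.73, 8.58%) and 6 of 10 in EC (1.01, 11.9%). Genes that respond to glucocorticoids, the stress hormones, were higher in EAE in 5 of 6 in EC (median 1.21; 18.5% of genes), 4 of 5 in Micro (1.30; 14.2%) and 4 of 5 in PVM (1.18; 11.7%). With sets summed 3, 3 and 4 were higher. Between the adult sets EC had 2 higher (9.88%) and 2 lower (9%; median 0.11). In juvenile mice they were lower in 4 of 6 and higher in 1 in EC (-0.81; 25.1% of genes lower and 23.9% higher), and lower in 3 of 5 in Micro (-1.11; 14%) and 3 of 5 in PVM (-1.36; 8.54%). With sets summed 3 were lower in each of these 3 types and none higher.

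For each member the 5 genes of most similar pattern were ranked by Spearman's rho of CPM over 135 units (a cell type in a library) among 9881 genes with a mean of at least 10 CPM. The units share libraries, depth and cells, so rho is a description. Of the 50 places, 12 went to other members and 16 to listed genes. *Fosb* was nearest to *Fos* (rho 0.762), *Klf4* to *Fosb* (0.780) and to *Dusp1* (0.766), *Nfkbiz* to *Zfp36* (0.874), *Zfp36* to *Atf3* (0.791) and *Jun* to *Egr1* (0.690). *Rhob* was nearest to *Jun* (0.794), *Pnrc1* to *Junb* (0.876), *Crip1* to *Nr4a1* (0.781) and *Fli1* to *Ier2* (0.808).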

How the data were processed

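Single cells of mouse cortex were captured in 11 libraries (10X Chromium 3' v2). The authors deposited 1 table of UMI counts per gene and cell for each library, whole numbers without normalization. The submitters' processing notes name bcl2fastq 2.19.1.403, UMI-tools 0.5.3, STAR 2.5.3a, featureCounts 1.6.1 and build mm10. The filters on barcodes were a gene number above 500 and below 6000 and a mitochondrial share below 25%. Any pair of libraries shared 0.466% to 1.66% of the barcodes of the smaller one. Cells were clustered without the members or the listed genes (Seurat 5.3.0) and named from fixed marker genes, with limits on naming (an own marker ratio of at least 0.1, a second type at most 0.6 of it) set after the clusters were seen. A set of 328 cells and 56 erythroid cells were left out. Doublets were called by Scrublet but kept, since it called only 2 of 4752 cells in Aged 2, and removal was an alternative.

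UMIs were summed per library and type with at least 10 cells, and CPM was taken from these sums. Differences were tested with edgeR 4.0.16 (R 4.3.3, TMM, filterByExpr, quasi-likelihood) over all genes of a type, with Benjamini-Hochberg adjusted p under 0.05 as the threshold. Errors after ± of a log2 difference are standard errors. Cell types were compared with library as block. Libraries were numbered by their labels, and sets of near-identical libraries were taken from chi-square distances over other genes. Such sets were kept as separate samples in the main fits and summed in an alternative. Between sets of one age, the spread came from libraries within near-identical sets, so log2 differences and standard errors are given there without p-values. Cells were thinned to 1500 UMIs for shares. All 10 members were examined, with statistics printed for those past the threshold and ranges for the rest. The members and lists were chosen with earlier results of these data known. On simulated data with 200 changed genes, 88% of them were recovered for EAE against adult in EC (13254 genes) and 69.5% in PVM (7852 genes), and 6.38% and 3.47% of calls were false. For the juvenile sets 61% were recovered in EC (13751 genes) and 38.5% in PVM (8435 genes). The simulated libraries varied independently around a shared mean, without near-identical sets. These rates therefore need not hold for the real libraries, which fall into such sets. Alternatives used DESeq2 1.42.0, other size factors, no filter on low counts, other naming of cells, a lower mitochondrial limit and each library left out.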

Additional observations from a re-analysis of the deposited data

Results flagged for a closer look

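Dixon's test of the gap to the nearest library flagged a library in 2 of 100 groups of 4 libraries, where chance gives about 1 in 20 for independent libraries. The 4 juvenile libraries are 2 near-identical pairs, so that share does not hold for them as it stands. *Junb* in Micro was 2260 CPM in Juvenile 1 against 2190 to 2200 in the others, and *Nr4a1* in neurons was 11.4 CPM in Juvenile 3 against 35.6 to 38.8. The *Junb* values were near-equal, and Juvenile 1 was flagged because the others lay closer still.

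In the cases below, the effect of a condition on a member differed from that in EC, both in the fit over libraries and with near-identical libraries summed. They are given as the log2 effect in the type minus that in EC. The share of all genes that differ so in both fits was not taken, so no excess over all genes is read from these cases. With libraries summed, aged and EAE mice were 1 sample each. For EAE in PVM the values were -1.86 for *Fos*, -2.28 for *Fosb*, -1.67 for *Jun*, -1.58 for *Junb*, -2.75 for *Egr1*, -1.18 for *Atf3*, -1.66 for *Nr4a1*, -1.76 for *Ier2* and -1.22 for *Zfp36*. Micro in EAE gave -1.67 for *Fos*, -2.07 for *Fosb* and -1.04 for *Egr1*. *Ier2* gave -1.50 in astrocytes and -1.98 in choroid plexus epithelium, *Zfp36* 1.55 in Fibro, *Nr4a1* -1.48 in monocytes or macrophages and *Fosb* -1.53 in T or NK cells. With 1 library left out, *Nr4a1* in monocytes or macrophages ran from -1.72 to -0.94.

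For aged mice, PVM gave -0.89 for *Fos*, -0.82 for *Jun*, -0.78 for *Junb* and -0.95 for *Ier2*, and astrocytes -1.92 for *Egr1*. For juvenile mice, astrocytes gave 1.67 for *Fosb*, 1.64 for *Jun* and 1.71 for *Egr1*. With 1 library left out these ran from 1.28 to 2.77, 1.24 to 2.09 and 1.34 to 2.08. Choroid plexus epithelium gave 1.81 for *Fosb*, 1.25 for *Egr1*, -1.39 for *Ier2* and 0.95 for *Dusp1*. In PVM the juvenile values were -0.69 for *Fos*, -0.66 for *Atf3* and 0.91 for *Zfp36*, and in Fibro 1.33 for *Fosb* and 1.72 for *Atf3*. The others were -1.58 for *Fos* in B cells, 0.86 for *Egr1* in Micro, 1.65 for *Fosb* in monocytes or macrophages and 1.84 for *Zfp36* in T or NK cells. With 1 library left out these ran from -2.24 to -1.14, 0.68 to 1.06, 1.24 to 2.06 and 1.22 to 2.41.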

How the results depend on the processing

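Summing near-identical libraries lowered the calls from 42 to 20 for juvenile against adult. Some of these 20 were new in that fit, and some were in oligodendrocytes, which had 1 juvenile sample there. Oligodendrocytes aside, juvenile calls made in both fits lay in choroid plexus epithelium, Micro and B cells. Summing also lowered the calls for aged and EAE against adult, where no aged call made before held. It lowered those for differences from EC as well (this last alternative was chosen after seeing the data). Aged calls were 13 without a low-count filter, 8 with DESeq2, 6 with cells named by marker score, 17 without Adult 1 and 0 without Aged 1 (edgeR). EAE calls were 14 without EAE 1 and 12 without EAE 2. With 1 library left out, calls ranged from 581 to 600 between cell types, 26 to 42 between the juvenile sets, 33 to 42 between the adult sets, 33 to 55 for juvenile, 0 to 17 for aged, 12 to 36 for EAE and 51 to 92 for differences from EC. In choroid plexus epithelium, naming cells by marker score reversed *Nr4a1* in juvenile mice (-0.20) and *Atf3* (0.54), *Junb* (0.53) and *Zfp36* (0.86) in EAE. The cause of these changes was not tested. Of the single calls, 53 of 73 kept direction and threshold with the replicate block, 181 of 183 with RLE size factors, 128 of 145 without the filter, 127 of 144 with DESeq2, 142 of 145 without doublets, 144 of 145 with the lower mitochondrial limit and 113 of 139 with marker scores. The 38 differences from EC listed above were chosen because both fits called them. No share of single calls is therefore given for near-identical libraries summed.

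Deviations of same-numbered libraries from their condition means in EC had correlations of -0.177 to 0.0927 over 13 pairs. In a condition with 2 libraries these deviations mirror each other, so the pairs are not independent. Whether the numbers pair the samples cannot be read from them. A replicate block gave 36 calls for juvenile, 4 for aged and 24 for EAE, and no library block gave 554 between cell types.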
